A study of Homo sapiens with 3 samples.

Results

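Ribosome-protected fragments that map to the first intron of a transcript are the subject here. Of the 46819 ribosome peaks in 3 lists, 3419 were annotated to intron 1 of a RefSeq transcript, and all of these, whatever the number of introns in the transcript, were taken as members. The vector list held 623 of 11219 peaks, the wild-type DDX3X list 1185 of 19920 and the DDX3X G325E list 1611 of 15680. The lists give positions, strands and annotations without a height or read count, so each value below is a share or a number of peaks. The study states reads per library, with G325E the shallowest after removal of duplicates, but no file analysed here ties reads to peaks.

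HEK293T cells, derived from human embryonic kidney, were transfected with pCDNA3.1 for 24 h. The plasmid was empty (vector), carried FLAG-tagged wild-type DDX3X or carried FLAG-tagged DDX3X G325E, a substitution seen in medulloblastoma. There was 1 library per construct, so the spread between cultures is unknown and no test between constructs was possible. The cells keep their own DDX3X gene, and the constructs were delivered transiently. Per the labels, all cells had harringtonine, which holds initiating ribosomes, at 2 µg/ml for 90 s and then cycloheximide, an inhibitor of elongation, at 100 µg/ml, whereas the study's methods name cycloheximide alone. DDX3X itself, an RNA helicase of the DEAD-box family, held 0 peaks with vector, 32 with wild-type DDX3X and 9 with G325E, none of them in its first intron. The labels also call the cells neuronal, but of 10 neuronal markers only TUBB3, a tubulin, held peaks (8, 6 and 5 in vector, wild-type and G325E).

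Introns are removed from the transcript in the nucleus, and the translating ribosome works on the spliced mRNA in the cytoplasm. The first intron begins at the end of the first exon. In many human genes it lies partly inside the CpG island that covers the promoter, and a second start site or an alternative first exon of the same gene often falls within it. A stretch that is the first intron of one transcript can therefore be the 5′-UTR or coding exon of another. The assay sequences short RNA that resists nuclease, whatever protects it.

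The sequences below show what these peaks lie on. Each is 30 bases of GRCh37 around the midpoint of a peak, read 5′ to 3′ on the strand of the peak, with every CG dinucleotide in capitals. The first set is the longest peak in each of the 6 genes with the most first-intron peaks over the 3 lists.
HNRNPU, chr1:245026589-245026618, minus strand: gCGggCGgCGggagggagccCGgtCGgccc
UBTF, chr17:42296340-42296369, plus strand: agaggCGcCGccacCGcccagccacccCGa
PTP4A1, chr6:64283176-64283205, minus strand: gccCGccCGgatctggaggCGaaccCGcca
ACTB, chr7:5569482-5569511, minus strand: ggttgggagggggttggggcctggcttcct
UBE2N, chr12:93835401-93835430, minus strand: gcCGgacagCGgggaccCGgggcttccagg
CBX3, chr7:26241967-26241996, plus strand: ggatgCGctgaccaCGaggccCGCGctccc

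UBTF and PTP4A1 are the pair in this set whose peak lies on the strand opposite the gene. The peaks of ACTB and CBX3 fall in a 5′-UTR exon of another GENCODE transcript, and the others lie outside annotated exons of their strand. The second set is 3 of the genes with the longest stretches covered by a first-intron peak in all 3 lists, and it shows sites that recurred. Each window is centred on the G325E peak, and that of AURKAIP1 begins before the stretch shared by all lists, which starts at position 1310242. Those of AURKAIP1 and RPS27 fall in a 5′-UTR exon and a coding exon of other transcripts.
ZIC5, chr13:100622054-100622083, minus strand: gcCGcCGcCGccacctCGgagcagaCGcag
AURKAIP1, chr1:1310235-1310264, minus strand: CGagggtCGCGgCGggaccagaCGccccag
RPS27, chr1:153963463-153963492, plus strand: ggcccagctgCGcagacaccaggggCGgCG

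The windows reached 90.0% G+C in HNRNPU, and 8 of the 9 held at least 3 CG dinucleotides. ACTB held 0. The peak of ZIC5, a zinc-finger transcription factor, shared 81 bp among the lists.

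The share of peaks in first introns was higher in G325E than in the other lists. First introns held 5.55% of vector peaks (95% Wilson interval 5.14 to 5.99), 5.95% of wild-type peaks (5.63 to 6.29) and 10.27% of G325E peaks (9.81 to 10.76). The G325E share was 1.73 times the wild-type share and 1.85 times the vector share, and its interval lay above both. The intervals of vector and wild-type overlapped. A higher share in G325E was not particular to first introns. The promoter-TSS class held 23.0%, 21.13% and 34.69% of vector, wild-type and G325E peaks, and 5′-UTRs held 5.05%, 5.16% and 8.67%. Coding exons held 49.47%, 51.59% and 35.55%. Shares are parts of a whole list, so they do not move independently. The vector and wild-type lists skip 14.8% and 13.5% of their peak numbers and the G325E list 0.0%. What the skipped rows held, and their part in these shares, was not tested. Intervals here cover counting error only, and neighbouring peaks of a gene are not independent.

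Later introns went the other way. They held 4.34% of vector peaks, 5.19% of wild-type peaks and 2.82% of G325E peaks, so the G325E share was 0.54 times the wild-type share. Among intron peaks alone, first introns took 56.13% with vector (53.19 to 59.02), 53.43% with wild-type DDX3X (51.35 to 55.49) and 78.47% with G325E (76.64 to 80.19). First introns made up 26.42%, 24.97% and 26.20% of the intron bases of the genes with intron peaks in the 3 lists. Per megabase of first intron in those genes, the lists held 129.43, 121.79 and 126.07 peaks. Per megabase of later intron they held 36.32, 35.33 and 12.28. The genes differ between lists, so these densities describe each list's own genes. Each gene entered through the same intron peaks that are counted, so the densities cannot be compared between lists.

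**Figure D1:**
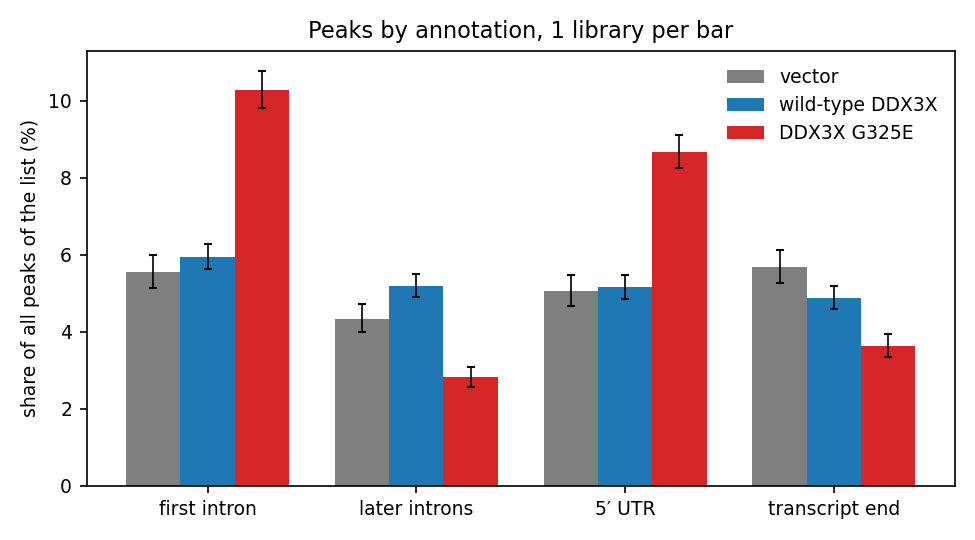
Share of all peaks of each list (%, y axis) annotated to first introns, later introns, 5′-UTRs and transcript ends (the TTS class), with 95% Wilson intervals that cover counting error only. G325E stands at 10.27% in first introns against 5.55% and 5.95%, and at 2.82% in later introns against 4.34% and 5.19%.

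The first-intron share followed the G+C content of the peaks, measured in the 31 bases around the midpoint. In every list it climbed with G+C, from 0.89%, 1.27% and 1.10% of peaks under 50% G+C to 19.42%, 24.22% and 20.01% of peaks at 90% or more. Within a class the lists lay close together. At 80 to 90% G+C, first introns held 18.85% of vector peaks (16.77 to 21.13), 18.55% of wild-type peaks (16.95 to 20.26) and 16.98% of G325E peaks (15.83 to 18.18). What differed was how many peaks of each list were that rich in G+C. Peaks at 90% or more were 0.9% of the vector list, 0.8% of the wild-type list and 10.4% of the G325E list.

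Weighted to the G+C makeup of the 3 lists together, first introns held 7.01% of vector, 7.67% of wild-type and 7.40% of G325E peaks. The higher share in G325E was thus not there at equal G+C content, where G325E differed from wild-type by −0.27 points and from vector by 0.39 points. The share among intron peaks behaved otherwise, standing at 59.46%, 58.75% and 72.07% for vector, wild-type and G325E after the same weighting, so a difference of 13.32 points from wild-type remained of 25.04. This weighting was chosen after the data were seen. Whether G+C content differs between the lists through the construct or through the library cannot be told apart with 1 library each.

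**Figure D2:**
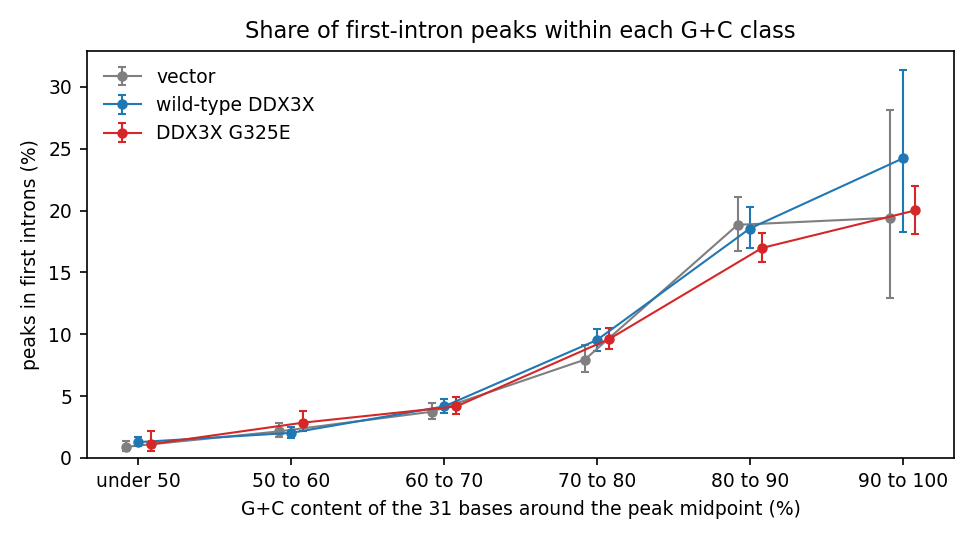
Share of peaks in first introns (%, y axis) within 6 classes of G+C content of the 31 bases around the midpoint (x axis), per list, with 95% Wilson intervals. The 3 lists run together, from about 1% of the peaks under 50% G+C (0.89%, 1.27% and 1.10%) to 16.98% to 18.85% at 80 to 90%.

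The first-intron peaks were themselves richer in G+C under G325E. The mean and SD over peaks were 74.1% ± 11 for the 623 of vector, 73.4% ± 11.2 for the 1185 of wild-type and 80.7% ± 9.8 for the 1611 of G325E. Peaks of 80% or more were 40.6%, 36.5% and 61.5% of them. The same step was seen in every class compared: later-intron peaks had means of 65.1%, 63.4% and 73.6%, coding peaks 58.7%, 58.1% and 67.6%, and all peaks 62.7%, 62.3% and 73.1%. First-intron peaks had the higher mean in each list. Most lay in annotated CpG islands, 79.6% with vector (76.3 to 82.6), 79.4% with wild-type DDX3X (77 to 81.6) and 81.3% with G325E (79.3 to 83.1). Later-intron peaks did so in 22.0%, 18.1% and 38.9%. The lists label a peak as CpG island or as repeat, never both, and only G325E holds repeat labels. The 9.4% of G325E first-intron peaks with a repeat label thus could not count as CpG island. Peaks with neither label made up 20.4%, 20.6% and 9.4%.

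Motifs made of G and C alone were more frequent in G325E, whose peaks were richer in G+C. Whether this held at equal G+C content was not tested. The motif GGGCGG, the core of a GC box, searched on both strands of the 31 bases, was present in 18.6% of vector, 16.6% of wild-type and 29.3% of G325E first-intron peaks, against 7.0%, 6.9% and 17.2% of all peaks. GGCGGC, which can overlap it by 5 letters or fewer, was present in 14.6%, 13.2% and 24.1% of first-intron peaks. It was present in 9.0%, 8.1% and 21.2% of all peaks and in 17.8%, 15.8% and 29.7% of 5′-UTR peaks. An ATG on the strand of the peak was found less often than over the whole list, in 10.3%, 10.5% and 6.6% of first-intron peaks against 24.6%, 25.3% and 16.6% of all peaks. The 5′ splice site letters GTAAGT and GTGAGT were each in 0.4% or less of first-intron peaks of any list. These matches describe letters, and no binding was measured.

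Peaks clustered at the 5′ end of the intron. Peaks within 100 bp of a start site are placed in the promoter-TSS class by the annotation, so the nearest annotated start was never closer than 106, 103 and 102 bp in vector, wild-type and G325E. On GENCODE transcripts, 607, 1159 and 1596 of the peaks could be placed in a first intron. Their median distance from the intron start was 209 bp with vector (95% interval 195 to 229), 191 bp with wild-type DDX3X (177 to 204) and 158 bp with G325E (149 to 167). The introns themselves were long, with medians of 3103, 2944 and 5295 bp, so the median peak lay 7.3%, 5.9% and 3.1% of the way in.

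The shift toward the intron start in G325E was seen in the nearest bin. Within 100 bp of the intron start lay 22.9% of vector (19.7 to 26.4), 28.0% of wild-type (25.5 to 30.7) and 33.5% of G325E peaks (31.2 to 35.9). Between 201 and 500 bp the order was turned, with 35.6%, 33.0% and 28.1%. Beyond 5000 bp lay 2.0%, 1.2% and 1.1%. Measured from the transcript start, the medians were 468 bp (441 to 501), 455 bp (431 to 473) and 444 bp (425 to 457), and their intervals overlapped. The most distant peaks were 3 in OPCML, a cell adhesion gene, in G325E, at 391244 to 391523 bp from the intron start on simple repeats.

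**Figure D3:**
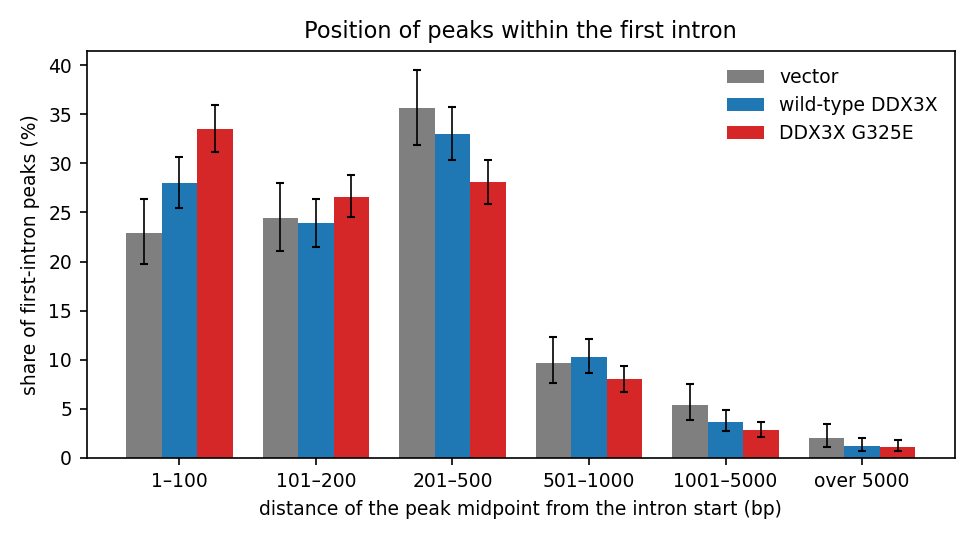
Share of first-intron peaks (%, y axis) by distance of the midpoint from the intron start in bp (x axis, bins of unequal width), per list, with 95% Wilson intervals. Within 100 bp lie 22.9% of vector, 28.0% of wild-type and 33.5% of G325E peaks.

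First-intron peaks were short. The median length was 22 bp with vector, 21 bp with wild-type DDX3X and 22 bp with G325E, against 36, 35 and 38 bp for coding peaks. Later-intron peaks were as short, with medians of 21, 21 and 22 bp. Peaks of at least 30 bp, about the length that a ribosome protects, made up 11.88%, 11.48% and 20.17% of them. With only such peaks counted, first introns held 1.33% of vector, 1.43% of wild-type and 4.09% of G325E peaks. Peaks of under 10 bp made up 17.5%, 17.8% and 16.4%, although the methods describe a minimum of that length before refinement. The longest first-intron peak of any list was 304 bp in LARP1, an RNA-binding protein of cap-proximal mRNA sequences, in G325E.

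Part of the set lay in exons of other transcripts. On the strand of the peak, 29.1% of vector (25.6 to 32.7), 28.1% of wild-type (25.6 to 30.7) and 19.4% of G325E peaks (17.6 to 21.4) had their midpoint in a GENCODE exon. The most common kind was a 5′-UTR exon, at 14.1%, 12.2% and 10.1%. Exons of retained-intron transcripts held 6.1%, 7.4% and 3.7%, coding exons 3.7%, 2.1% and 2.5%, and long non-coding RNA exons 1.3%, 1.5% and 1.2%. Small RNA exons held 0 in each list, which allows up to 0.482%, 0.253% and 0.186%. Without the peaks in GENCODE exons, first introns still held 3.94% of vector, 4.28% of wild-type and 8.28% of G325E peaks.

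Peaks on the strand opposite the gene were more common in first introns than in coding exons. They made up 27.9% of first-intron peaks with vector (24.5 to 31.5), 28.4% with wild-type DDX3X (25.9 to 31) and 39.2% with G325E (36.9 to 41.7). For coding peaks these values were 3.4%, 3.6% and 7.2%. For later introns they were 25.6%, 24.1% and 29.1%, and for the promoter-TSS class 39.8%, 41.3% and 40.8%. Of the opposite-strand peaks in first introns, 11.1%, 9.3% and 5.1% lay in annotated exons of their own strand. Which RNA these peaks came from was not tested. Over all peaks the opposite-strand shares were 18.0%, 17.7% and 25.5%, and in 5′-UTRs 11.2%, 13.7% and 15.5%, so a higher value in G325E was not particular to first introns. The promoter-TSS share was level across the lists.

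This difference was present at equal G+C content. With first-intron peaks weighted to the same G+C makeup, the opposite-strand share was 29.05% with vector, 28.28% with wild-type DDX3X and 39.26% with G325E. It was also seen within 100 bp of the intron start (30.4%, 26.6% and 41.7%) and from 100 to 250 bp (27.8%, 28.5% and 39.6%). From 250 to 500 bp the values were 32.9%, 31.2% and 34.9%, with overlapping intervals. From 500 to 1000 bp they were 11.7%, 25.2% and 34.4%, and the G325E interval lay above that of vector but overlapped that of wild-type. At 1000 bp and over, G325E stood at 46.8%, against intervals of 14.2 to 38.7 with vector and 15.5 to 37.7 with wild-type DDX3X. The G325E interval there began at 34.9 and overlapped both. In the 192 genes with first-intron peaks in all 3 lists, the share was 29.9% with vector (25.6 to 34.6), 26.6% with wild-type DDX3X (22.7 to 30.8) and 33.5% with G325E (29.6 to 37.6), so in these genes the interval of G325E overlapped both others.

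Peaks on the gene strand and on the opposite strand were alike in composition. In G325E the mean G+C content was 80.7% ± 9.5 (SD, 974 peaks) on the gene strand and 80.6% ± 10.3 (629 peaks) on the other, and 81.0% and 81.4% lay in CpG islands. Median lengths were 22 bp on both. In vector the means were 74.1% and 73.9%, and in wild-type 73.4% and 73.4%. Annotated exons on the strand of the peak set them apart, holding 28.3% of gene-strand and 5.1% of opposite-strand peaks in G325E.

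Of genes with at least 2 first-intron peaks, 46 of 160 in vector, 76 of 305 in wild-type and 155 of 398 in G325E had them on both strands. A peak on the other strand lay within 100 bp of 15.2%, 13.7% and 24.0% of first-intron peaks. In none of the lists did one overlap a peak of the other strand, in first introns or among all peaks of any list (0 of 46819 in all), so each base belongs to 1 strand in these lists. How the strand of a peak was assigned where reads of both strands meet is not given in the sources used here.

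**Figure D4:**
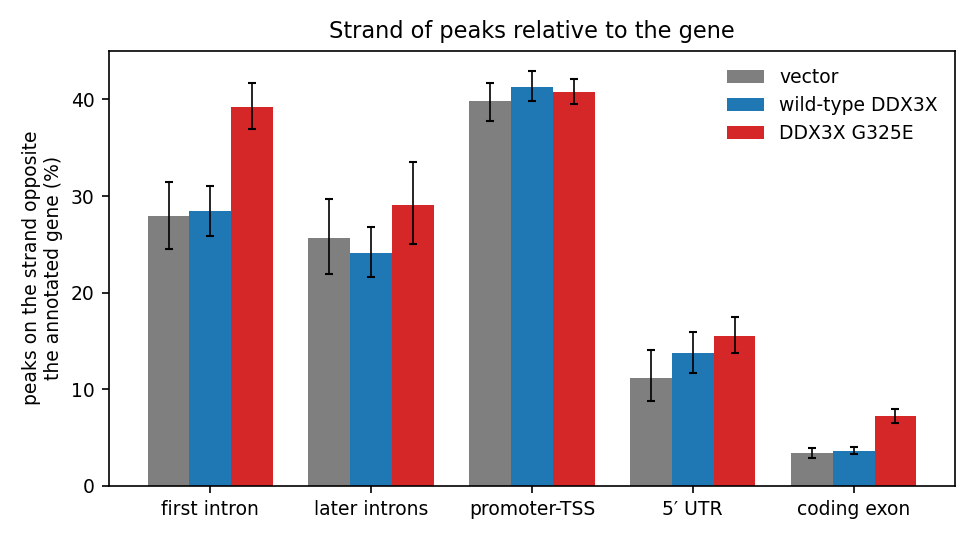
Share of peaks on the strand opposite the annotated gene (%, y axis) by annotation class and list, with 95% Wilson intervals. In first introns G325E stands at 39.2% against 27.9% and 28.4%, near the 39.8% to 41.3% of the promoter-TSS class.

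The lists shared a smaller part of their first-intron peaks than of all their peaks. Later-intron peaks of vector overlapped wild-type in 37.4% and G325E in 16.6%, less than its first-intron peaks, whereas those of G325E overlapped vector in 18.6% and wild-type in 26.7%, more than its first-intron peaks (14.2% and 20.6%). Of vector first-intron peaks, 46.5% overlapped a wild-type peak of any class by at least 1 bp on the same strand and 37.7% a G325E peak. The shares without overlap were 53.5% and 62.3%, against 24.9% and 53.6% of all vector peaks. Of wild-type first-intron peaks, 75.5% had no overlap in vector and 71.0% none in G325E (59.3% and 66.4% of all wild-type peaks). Of G325E first-intron peaks, 85.8% had none in vector and 79.4% none in wild-type, against 65.7% and 54.3% of all G325E peaks. First-intron peaks were also shorter, and the part of length in this was not tested. In all, 172 stretches in 114 genes were covered by a first-intron peak in each list, with a median of 20 bp.

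First-intron peaks were spread over many genes. In vector 336 of 2051 genes with any peak held one (16.4%), in wild-type 590 of 3090 (19.1%) and in G325E 680 of 2372 (28.7%). Together these were 976 genes, of which 192 had first-intron peaks in all 3 lists, 303 in G325E alone, 186 in wild-type alone and 49 in vector alone. Of the 303 genes seen in G325E alone, 149 had a peak of another class in a different list and 154 had no peak at all there. For the 186 of wild-type alone these numbers were 116 and 70, and for the 49 of vector alone 46 and 3. With peaks of any class counted, 1408 genes were held by every list. The split by list of the other genes with any peak was not computed, so whether 303 is high cannot be judged. Repeat-annotated peaks occur in the G325E list only, and without them 644 G325E genes held a first-intron peak instead of 680. How many of the 303 genes rest on such peaks was not tested. The lists differ in length, and the part of that in these gene counts was not tested. The 8 genes with the most peaks held 7.9%, 5.1% and 5.0% of the first-intron peaks of the lists.

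Most of these genes had peaks elsewhere. A coding peak was also present in 70.8% of them with vector, 74.9% with wild-type DDX3X and 65.3% with G325E. Among genes with peaks but none in a first intron, a coding peak was present in 63.7%, 66.0% and 53.5%. A promoter-TSS peak accompanied the first-intron peak in 60.4%, 67.1% and 80.1%. No promoter-TSS, 5′-UTR or coding peak accompanied the first-intron peak in 6.0%, 6.6% and 2.2% of the genes. In the 1408 genes with at least 1 peak of any class in each list, first introns held 6.39% of vector (5.88 to 6.94), 6.95% of wild-type (6.49 to 7.45) and 9.89% of G325E peaks (9.30 to 10.5).

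Several genes carried first-intron peaks in all lists. HNRNPU, a nuclear matrix and RNA-binding protein, had 4 with vector, 7 with wild-type DDX3X and 11 with G325E, all on the gene strand of an 886 bp intron (chromosome 1, 245026033 to 245026918). Of its 22 peaks, 5 lay on annotated repeats, a kind of peak that the other lists do not hold. ACTB, cytoplasmic actin, had 6, 8 and 5 peaks in an 860 bp intron (chromosome 7, 5569295 to 5570154), and all 19 were on the gene strand. UBE2N, a ubiquitin-conjugating enzyme, had 4, 5 and 9 on the gene strand. PTP4A1, a protein tyrosine phosphatase, had 4, 6 and 10, and 18 of the 20 were on the opposite strand. CUL3, the scaffold of a ubiquitin ligase, had 3, 3 and 8, with 8 of the 14 on the opposite strand. QKI, an RNA-binding splicing regulator, had 3, 1 and 8, with 3 of the 12 on the opposite strand. Of its G325E peaks, 2 lay on annotated repeats.

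UBTF, a transcription factor of ribosomal RNA genes, stood apart from an order by construct. Its first intron (1148 bp, chromosome 17, 42295665 to 42296812) held 11 peaks with vector, 1 with wild-type DDX3X and 10 with G325E, with 7 of 11, 0 of 1 and 7 of 10 on the opposite strand. Its coding exons held 4, 22 and 1. The list with the fewest first-intron peaks in this gene was thus the one with the most coding peaks.

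Some genes had first-intron peaks under G325E alone. KMT5A, a histone H4 methyltransferase, had 0, 0 and 13, of which 8 were on the opposite strand and 6 on annotated repeats. These lay at 4636 to 5157 bp of a 5224 bp intron, near its far end, with a mean G+C content of 89.6%. SEPHS1, a relative of selenophosphate synthetase, had 0, 0 and 11, with 7 on repeats. Since the vector and wild-type lists hold no peak on a repeat, their 0s in KMT5A and SEPHS1 cannot be told apart from rows left out of those lists. Peak numbers were also skipped there at the position of G325E first-intron peaks without a repeat label, 36.3% of them in vector and 31.4% in wild-type. Whether skipped rows bear on the 0s of the genes below was not tested. CDK2AP1, a subunit of the NuRD complex, had 0, 0 and 8, EHMT2, a histone H3 methyltransferase, 0, 0 and 7, and SMARCC1, a core SWI/SNF subunit, 0, 0 and 6. Of the 6 in SMARCC1, 4 were on the opposite strand. CDK2AP1 had no peak of any class in the other lists, whereas EHMT2 and SMARCC1 had some there. LARP1 had 0, 0 and 7, which were all the peaks it had. Of these, 6 lay in 5′-UTR or coding exons of other transcripts.

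Other genes had more first-intron peaks in wild-type. CREB5, a transcription factor, had 0, 8 and 0 and no other peak in any list, and 4 of the 8 were on the opposite strand. EIF1, which sets the stringency of start codon choice, had 0, 8 and 1, of which 7 were in exons of retained-intron transcripts. IMPACT, a regulator of the stress kinase that phosphorylates the initiation factor eIF2, had 2, 7 and 2, all 11 in such exons. MEX3B, an RNA-binding protein, had 0, 5 and 0. TBCA, a tubulin-folding cofactor, had 5, 7 and 0, OAZ1, ornithine decarboxylase antizyme, 1, 7 and 6, and TPM4, a tropomyosin, 0, 7 and 6. LRATD2 had 2, 8 and 2. No peak of any class was held by EIF1 or TPM4 in vector, by MEX3B in vector or G325E, or by TBCA in G325E.

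In vector the largest excess of first-intron peaks over the other lists was 3. ARL6IP1, a shaping protein of the endoplasmic reticulum, had 5, 2 and 1. NME1-NME2, a readthrough of neighbouring nucleoside diphosphate kinase genes whose peaks cannot be told from theirs, had 4, 1 and 0, with no G325E peak of any class. RABL6, a small GTPase, also had 4, 1 and 0, of which 3 lay in a pseudogene, and C15orf39 had 3, 0 and 0. The 3 of C15orf39 were all on the opposite strand. DCAF4, a ubiquitin ligase receptor, had 6, 4 and 4, of which 11 were on the opposite strand and 8 in a pseudogene 3079 to 3402 bp into the intron, and which of these the reads came from was not tested. H3-3B, which encodes a variant histone H3, had 6, 4 and 4, and all 14 were in 5′-UTR or retained-intron exons. SUMO2, a ubiquitin-like modifier, had 5, 4 and 6, TMSB10, which binds actin monomers, 5, 2 and 5, and CMTM3 5, 4 and 4. In CMTM3, 7 of the 13 were on the opposite strand.

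**Figure D5:**
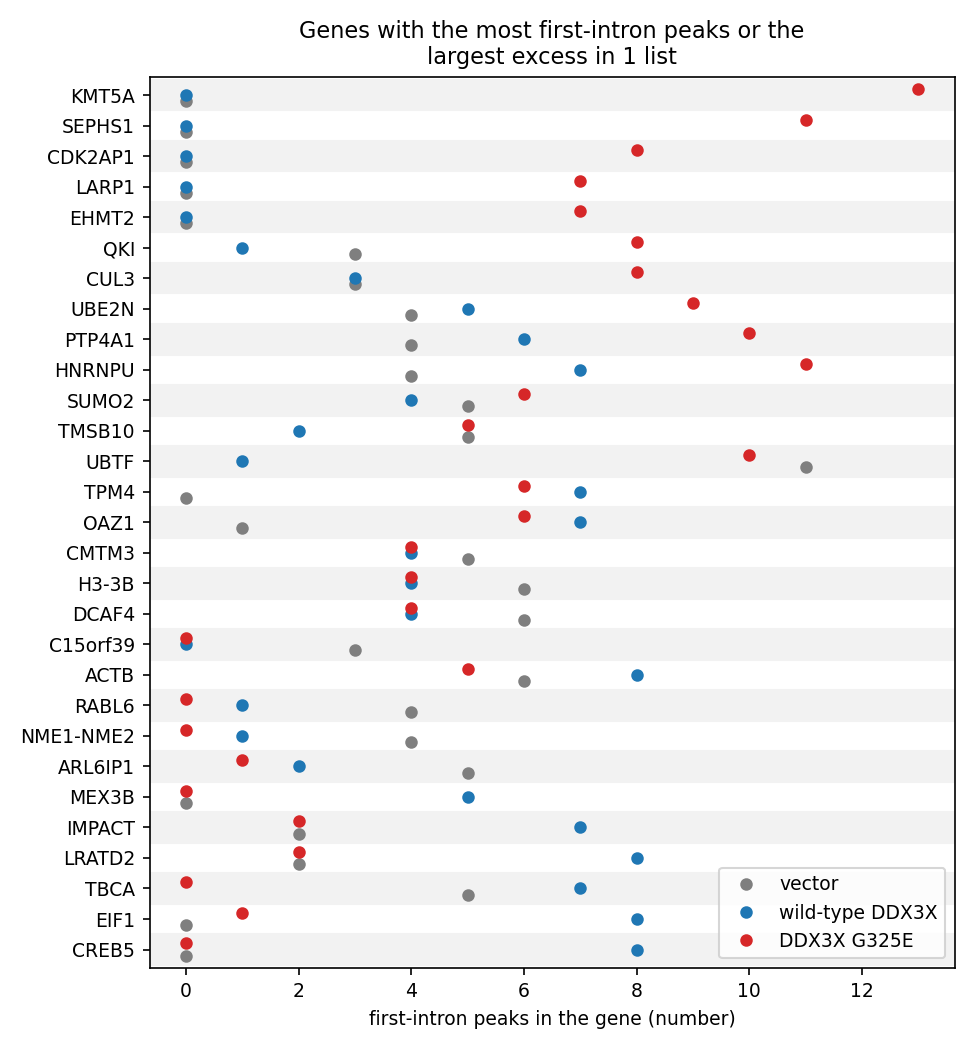
Number of first-intron peaks (x axis) in each list for the genes with the most such peaks in a list or the largest excess in 1 list, ordered by G325E minus the higher of the others. KMT5A has 13 in G325E and 0 elsewhere, CREB5 has 8 in wild-type and 0 elsewhere, and UBTF has 11 in vector, 10 in G325E and 1 in wild-type.

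Gene groups were read against the background above (16.4%, 19.1% and 28.7% of genes). Of ribosomal protein genes with any peak, 20 of 69 in vector, 26 of 75 in wild-type and 19 of 57 in G325E had a first-intron peak, with 33, 53 and 35 peaks. RPS15 had 3, 4 and 2, all 9 in annotated 5′-UTR or coding exons, and RPS7 had 2, 4 and 2. Of initiation and elongation factor genes it was 7 of 32, 11 of 39 and 6 of 27. EIF4G3, a scaffold of the cap-binding complex, had 1, 1 and 7 peaks, 8 of the 9 in coding exons of other transcripts. Of its 7 G325E peaks, 4 lay on annotated repeats, a kind of peak that the other lists do not hold. EIF2AK2, the kinase PKR, had 0, 3 and 3.

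Of the histone-modifying and remodelling genes, 5 of 15 in vector, 4 of 18 in wild-type and 9 of 19 in G325E had one, with 8, 11 and 40 peaks, of which KMT5A and SMARCC1 gave 19 between them in G325E. The share of all genes was also higher in G325E. HDAC2, a histone deacetylase, had 3, 6 and 5, with 10 of the 14 on the opposite strand. For hnRNP and SR proteins it was 6 of 24, 8 of 32 and 6 of 23 genes. HNRNPD had 3, 1 and 1 peaks and HNRNPL 2, 3 and 1.

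DEAD/DEAH-box helicases, the family of DDX3X, gave 0 of 10 genes in vector, 3 of 23 in wild-type and 0 of 10 in G325E. The 3 were DDX17, DDX39A and DDX50, with 1 peak each. With so few genes, a difference from the background could not be judged. Zinc-finger genes gave 2 of 11, 3 of 22 and 4 of 18, with ZNF703 at 3, 3 and 6 peaks, ZNF787 at 0, 6 and 5, and the readthrough ZNF664-RFLNA at 1, 1 and 3. Solute carriers gave 2 of 16, 9 of 33 and 7 of 34. SLC38A2, an amino acid transporter, had 0, 5 and 1, SLC66A2 0, 5 and 2, and SLC30A5, a zinc transporter, 0, 2 and 2. In SLC30A5, 3 of the 4 were on the opposite strand. ZNF787 and these solute carriers held no vector peak of any class.

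Homeobox, SOX and FOX factors gave 1 of 13, 5 of 22 and 5 of 31 genes, with 1 peak in each list for HOXB9, 0, 2 and 1 for HOXC9, and 0, 3 and 0 for FOXP4. Early-response factors gave 0 of 4, 0 of 5 and 1 of 6, the 1 being MYC. Hosts of small nucleolar RNAs gave 4 of 35, 7 of 54 and 9 of 33. Of these, DEGS1, a sphingolipid desaturase, had 0, 2 and 5 peaks, and YWHAH, a 14-3-3 protein, 3, 6 and 7. In YWHAH, 11 of the 16 were on the opposite strand. Among the proteins assayed in the study, SET, RACK1, HNRNPA2B1 and PNN had no first-intron peak in any list (0). HELLS, a chromatin remodeller, had 0, 2 and 1. FOXP4, DEGS1 and HELLS held no vector peak of any class, and FOXP4 none in G325E.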

How the data were processed

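Ribosome profiling gave 1 peak list per sample (3 groups, 1 library each), assigned by sample title. The authors trimmed reads with cutadapt, aligned them with BWA (0.5.5, per the submitters' processing notes) to NCBI Build 37 with RefSeq, junction and AceView sequences, removed duplicates, called peaks from Bambino coverage in each sample, refined and reviewed them, and annotated them with HOMER (version not stated). The deposited values are positions, strands, region names and a distance, with no count, signal or score. Repeat-annotated peaks occur in the G325E list only (290) and not among vector or wild-type peaks, whose peak numbers skip 1952 and 3099.

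Members were the rows annotated to intron 1. They and the gene lists were chosen with earlier results of these data known. Genes came from the RefSeq accession (symbols are current), or from the file's gene where it did not match. GENCODE release 44 on GRCh37 gave introns and exons. 0 of 46819 peaks lay past a chromosome end of that build. Strand was known for 614, 1174 and 1603 members. G+C content came from 31 bases, overlap needed 1 bp on the same strand, and intervals are 95% Wilson intervals (3 peaks where the count was 0). Intervals of medians came from order statistics. Peaks of no length (18, 29 and 52 members) were kept, as 1 base for overlap, exons and sequence and as no length in lengths and weighting by length. They could not enter the stretches covered in all lists. Named genes were the 8 with the most first-intron peaks per list, the 5 with the largest excess per list, the 3 leading members of each of 10 lists, and DDX3X with the 5 genes assayed in the study. The measures were tested on simulated peaks. Software was Python 3.11.15, numpy 2.4.6, pandas 2.3.3, scipy 1.17.1 and matplotlib 3.10.9. A gene that the rules select is not reported here.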

Additional observations from a re-analysis of the deposited data

Results flagged for a closer look

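Repeat-annotated first-intron peaks were picked out because they appear in rows that have no counterpart in the control list. In G325E, 151 of 1611 first-intron peaks (9.4%, 95% Wilson interval 8.0 to 10.9) carried a repeat name in place of a plain intron, 112 of them low-complexity sequence, 19 simple repeats, 14 SINEs, 4 LTRs and 2 LINEs. The vector and wild-type lists held 0. Peak numbers are skipped there too (14.8% and 13.5% of them), and 0 are in the G325E list. In the wild-type list, a number was skipped at the position of 99 of 151 such G325E peaks (65.6%) and of 31.4% of the other G325E first-intron peaks, and in the vector list at 67.6% and 36.3%. What the skipped rows held was not analysed here, so rows of this kind may have been removed from those lists, and a 0 there sets no limit. Left out, the G325E first-intron share was 9.49%, and at equal G+C content 6.92% against 6.96% in vector and 7.61% in wild-type.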

How the results depend on the processing

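No paired analysis was possible because each group has 1 library and no result comes from a test. Values below are for vector, wild-type and G325E, and of 129 recomputed values 57 stayed near the value reported (inside its interval or, for numbers of genes, within 1.5 times). The share of peaks in first introns became 1.33%, 1.43% and 4.09% with peaks of at least 30 bp, 2.87%, 3.12% and 5.47% weighted by length, 5.08%, 5.34% and 8.63% on the gene strand, 3.94%, 4.28% and 8.28% without GENCODE exon peaks, and 6.46%, 6.85% and 11.84% with close peaks counted as 1. It was 6.39% and 6.95% for vector and wild-type in genes with peaks in each list, 2.08% and 7.18% for wild-type and G325E over the same number of longest peaks (vector keeps 5.55%), and 9.49% for G325E without repeats. G325E was the highest under each of these, and lay below wild-type only at equal G+C content (7.01%, 7.67% and 7.40%). The settings without repeats and at equal G+C content were chosen after the data were seen, for every result.

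The first-intron share of intron peaks became 50.68% and 58.37% for vector and wild-type at 30 bp or more, 60.88% and 81.79% for vector and G325E without exon peaks, 58.54% for wild-type over the longest peaks, and 59.46%, 58.75% and 72.07% at equal G+C content. The share in GENCODE exons became 37.88%, 35.78% and 27.31% with either strand and 47.30%, 43.38% and 23.69% at 30 bp or more. The median distance was 240, 211.5 and 126 bp at 30 bp or more, and 468, 455 and 444 bp from the transcript start. Mean G+C content was 76.13%, 75.06% and 82.56% over the peak itself, 74.44% and 81.60% for wild-type and G325E without exon peaks, 75.09% and 85.00% for them at 30 bp or more, and 80.07% for G325E without repeats. The gene-strand share of vector was 81.94% at 30 bp or more.

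Overlap, in the order vector in wild-type, vector in G325E, wild-type in vector, wild-type in G325E, G325E in vector and G325E in wild-type, was 38.20%, 27.45%, 20.17%, 20.42%, 10.61% and 15.02% where 50% of both peaks had to overlap, and 64.85%, 56.18%, 41.18%, 47.17%, 26.94% and 36.62% with midpoints within 100 bp. The last 2 pairs gave 7.38% and 12.62% at 30 bp or more, and the last one 22.74% without repeats. Genes with first-intron peaks numbered 377 and 388 in wild-type and G325E among genes with peaks in each list, and 60, 109 and 233 at 30 bp or more. The cause of these shifts was not tested. The libraries differ in depth, which the peak lists do not carry, so peaks missing from a list may lie under its calling threshold.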
